A study of Mus musculus with 6 samples.

Results

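The valine tRNA fragments described here are the 32 small RNAs whose names begin with tRF-Val in the deposited tables, out of 2334 small RNAs listed (1836 microRNAs and 498 tRNA-derived small RNAs, tsRNAs, of which 460 are named tRF). Every small RNA with such a name was taken, whatever its level or difference. The name gives an anticodon and a serial number: 17 members were named for anticodon AAC, 6 for CAC and 9 for TAC (written in DNA letters). The study profiled RPE-choroid-sclera tissue (RPE, the retinal pigment epithelium) from male mice of 7 to 8 weeks, to ask which small RNAs differ in choroidal neovascularization (CNV), the growth of new choroidal vessels under the retina. CNV eyes received 25 spots of a 532 nm laser (100 mW, 0.1 s, 50 µm) and were collected on day 7. The controls were mice of matching age that had no laser. No strain, allele or drug is named in the labels. Each group had 3 libraries, each made from a pool of 4 eyes. Whether eyes of a mouse went into more than 1 pool is not stated, so p-values measure how much these 6 samples vary, which can include technical variation.

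Valine tRNAs carry valine to the ribosome. In the cytosol the first anticodon base of the AAC tRNA is edited to inosine, which lets it read several of the valine codons. The 3 anticodons stand for different sets of tRNA genes. Nucleases cut tRNAs into short stable RNAs: cuts outside the anticodon loop give fragments named tRF, and cuts within the loop, made in stress by angiogenin, a ribonuclease first found as an inducer of vessel growth, give longer fragments named tiRNA. RefSeq lists 8 nuclear genes for valine tRNAs with anticodon AAC, 11 for CAC and 3 for TAC in assembly GRCm38.p6. The deposited tables pair the fragment names with no sequence, so which stretch of the tRNA each fragment holds, and whether fragments share reads, was not analysed here. No tRF-Val fragment had counts identical to those of another small RNA in all 6 libraries.

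The libraries held 5057142 to 12839386 counts, with control 2 the deepest. The tRF-Val members took 4495 to 12774 of them per library, and 31 or 32 of the 32 members were counted in each. Every marker miRNA of the RPE, fixed for the check of the tissue label, was counted in each library, and the summed level of these 4 was 6838 to 7039 CPM in control and 4571 to 6543 CPM in CNV (CPM, counts-per-million of a library total scaled by the trimmed mean of M-values, TMM). Markers of other cells were present as well, with none of the lists holding a member at 0 in a library. The summed levels of 4 photoreceptor markers were 49357 to 75808 CPM in control and 24742 to 49487 in CNV, those of 4 neuron markers 13864 to 21044 and 7827 to 12490.1, and those of 4 leukocyte markers 463 to 581 and 612 to 910.4. Those of 4 fibroblast and smooth muscle markers were 82553 to 96894 in control and 97805 to 117030.4 in CNV. Photoreceptor, erythrocyte (1310 to 2107 and 954 to 4164), endothelial, skeletal muscle and surface epithelium markers had overlapping groups. Endothelial markers summed to 35232 to 45051 CPM in control and 35434 to 42864 in CNV, and surface epithelium markers to 2303 to 5200 and 3270 to 6600. The skeletal muscle markers varied widely in control, at 34290, 80865 and 91077 CPM in pools 1 to 3, and ran from 57413 to 90552 CPM in CNV. The part of these cells in the fragment levels below was not tested. In bulk tissue, fewer cells of a type and less RNA per cell cannot be told apart.

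Valine fragments were a minor class dominated by a pair of AAC fragments. They ranked 3 of 20 amino acids by tRF counts, with 1.69% of all tRF counts against 82.0% for glycine and 7.74% for glutamate. AAC members held 92.1%, 91.2% and 90.7% of the tRF-Val counts in control pools 1 to 3 and 91.9%, 93.2% and 92.6% in CNV pools 1 to 3. The fragments tRF-Val-AAC-024 and tRF-Val-AAC-021 together made up 72.7% to 76.9% of the tRF-Val counts in every pool. CAC, the anticodon with the most RefSeq genes, gave 1.42% to 1.82% of the tRF-Val counts, and TAC gave 5.12% to 7.89%. Of the 32 members, 2 had a mean over 100 CPM, 7 lay between 10 and 100 CPM, and 23 were under 10 CPM, so most rested on few reads. The lowest, tRF-Val-CAC-019, had a mean of 7.00 counts per library, for which counting alone gives an error of 37.8%, while counting error was 1.71% for tRF-Val-AAC-024.

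**Figure D1:**
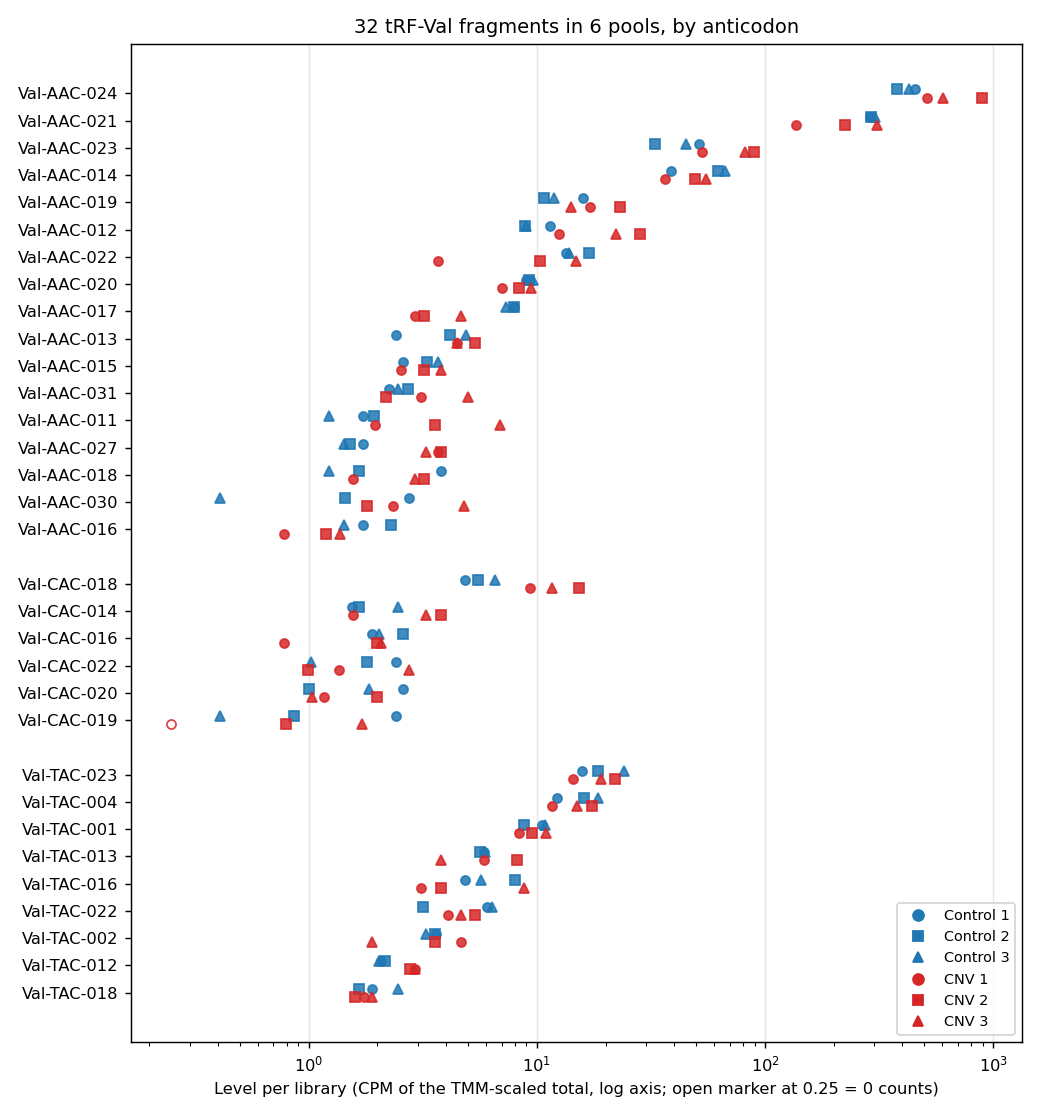
Level of each of the 32 tRF-Val fragments in each of the 6 pools, in CPM on a log axis, grouped by anticodon and ordered by mean level. Blue markers are control pools, red markers CNV pools, with the shape giving the pool number. The AAC fragments span from 893 CPM to under 1 CPM, with red above blue for some and below for others, while for TAC the colours intermix except for tRF-Val-TAC-012.

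The CAC fraction looked different among the tiRNAs. The 5 valine tiRNAs were led by tiRNA-Val-CAC-004, at 131, 121 and 129 CPM in control and 201, 229 and 131 CPM in CNV. It and the rare tiRNA-Val-CAC-005 made up 74.0% to 79.0% of the tiRNA-Val counts per pool, against 17.1% to 20.6% for AAC and 3.44% to 5.41% for TAC. The order of anticodons among the valine tRFs, AAC over TAC over CAC, thus differed from the order CAC over AAC over TAC among the tiRNAs in each of the 6 pools.

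**Figure D2:**
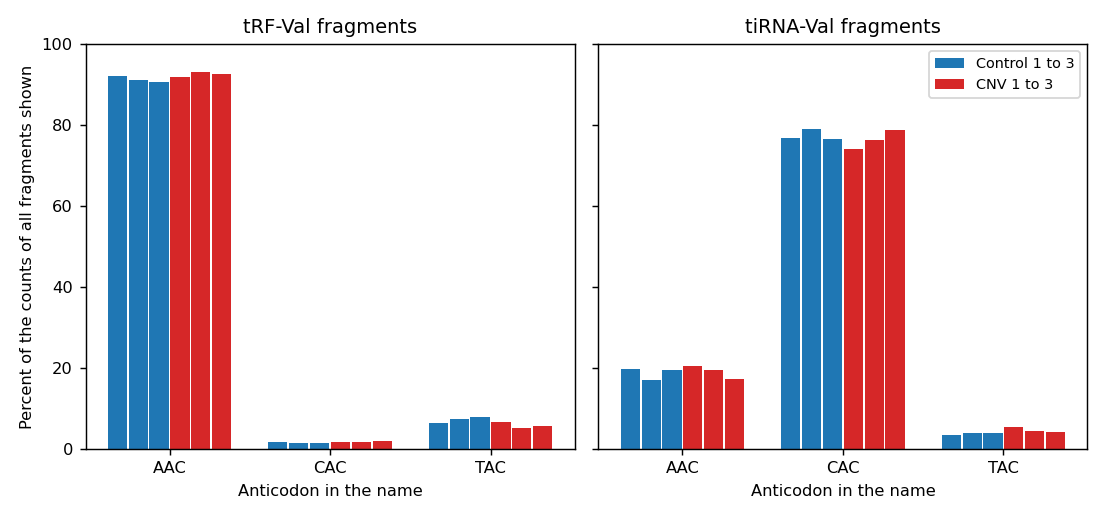
Percent of the tRF-Val counts (left) and of the tiRNA-Val counts (right) held by each anticodon, 1 bar per pool, control in blue and CNV in red. AAC holds 90.7% to 93.2% of the tRF-Val counts, and CAC 74.0% to 79.0% of the tiRNA-Val counts.

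CNV was compared with control in a single edgeR quasi-likelihood fit over the 997 small RNAs with enough reads, of which 29 were tRF-Val. The 3 members left out for low counts were tRF-Val-AAC-016, tRF-Val-CAC-020 and tRF-Val-CAC-019. No tRF-Val fragment passed an adjusted p of 0.05 (Benjamini-Hochberg over all 997), where 0.301% of all small RNAs did, and the smallest adjusted p among the members was 0.127. At an unadjusted p under 0.05 there were 6 higher members and 1 lower, where 10.8% of all small RNAs were higher and 6.92% lower at that level (12% and 4.34% of the 392 other tRFs). limma-voom called no member either. DESeq2 called 3 members, 2 higher and 1 lower, where it called 3.81% of all small RNAs. They were tRF-Val-AAC-012 and tRF-Val-CAC-018, which were higher, and tRF-Val-AAC-017, which was lower. DESeq2 gave no adjusted p for 11 of the 29 members because of their low counts. So no direction below rests on edgeR's adjusted test, and the pool values are given for each member that carries the pattern.

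The median log2 fold change of the 29 members was -0.01, against 0.05 over all 997 small RNAs and 0.08 over the 392 other tRFs tested. This median near 0 combined members on both sides, 14 above 0 (53.6% of all small RNAs were) and 15 below. Their standard deviation of log2 fold changes was 0.59, the fourth largest of 20 amino acids (0.17 for tyrosine to 0.64 for arginine). The spread lay with AAC and CAC. Over the 16 tested AAC members the log2 fold changes ran from -1.10 to 1.29 (median 0.39, 10 above 0). This median was 0.17 without CNV pool 2, 0.045 without CNV pool 3 and 0.24 with total-count scaling. The values ran from -0.46 to 1.11 over the 4 tested CAC members, and over the 9 TAC members from -0.26 to 0.45 (median -0.07, 2 above 0).

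**Figure D3:**
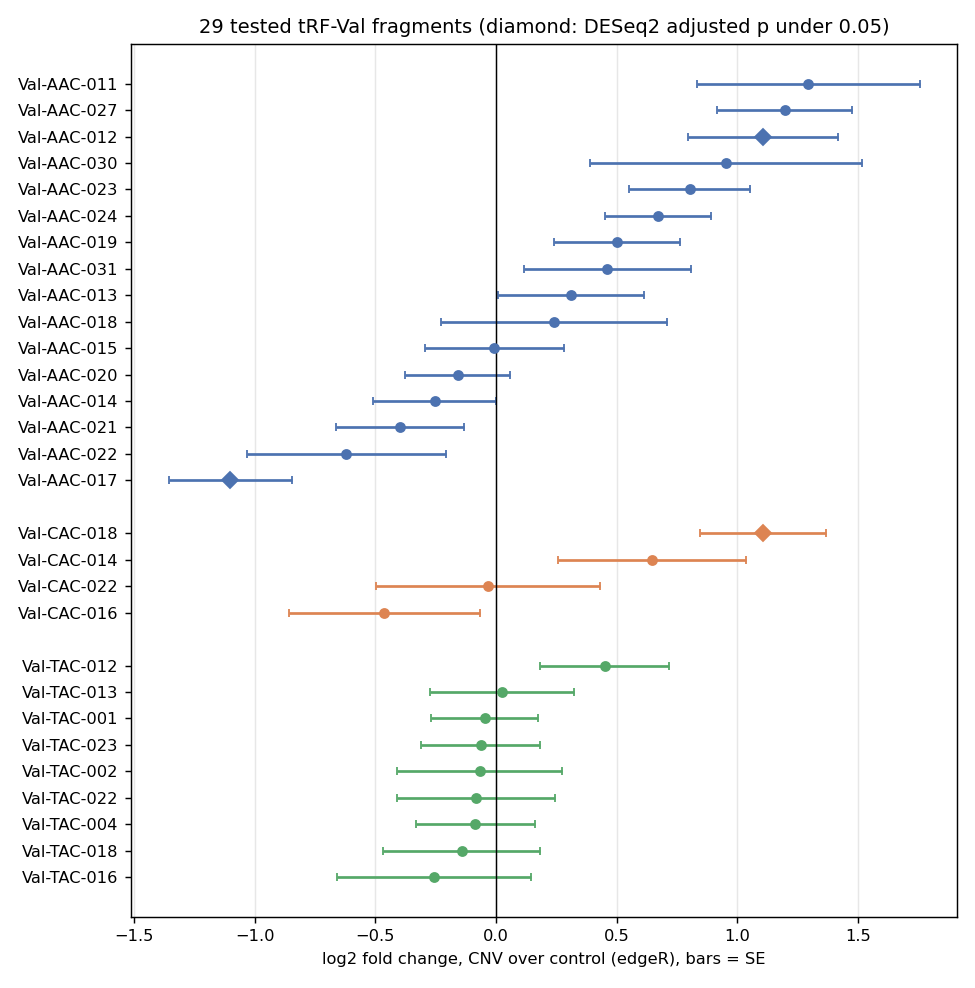
log2 fold change of CNV over control with its standard error (SE) for the 29 tested tRF-Val fragments, by anticodon. Diamonds mark the 3 fragments that DESeq2 called. AAC members reach from 1.29 to -1.10, and 8 of the 9 TAC members lie between -0.26 and 0.03.

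Among the AAC fragments the most abundant one was higher in CNV. The level of tRF-Val-AAC-024 was 455, 378 and 426 CPM in control pools 1 to 3 and 513, 893 and 601 CPM in CNV pools 1 to 3. The CNV pools lay above the control pools, with CNV 2 standing highest and CNV 1 close to control 1. The group values were 419.7 ± 38.9 CPM and 669 ± 199 CPM (mean ± SD, n = 3), a 1.59-fold difference (log2 0.67, SE 0.22, adjusted p 0.195 in edgeR). Without CNV pool 2 the log2 fold change was 0.36. When only the total count was used for scaling, the groups overlapped and the log2 fold change was 0.53.

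A less abundant pair of AAC fragments had the same direction. The fragment tRF-Val-AAC-023 was at 51.2, 33.1 and 45.1 CPM in control and 53.1, 89.7 and 82.0 CPM in CNV (log2 0.80, SE 0.25, adjusted p 0.184 in edgeR). The groups were apart by the small step from control 1 to CNV 1, and CNV 2 and CNV 3 were well above every control pool. The fragment tRF-Val-AAC-012 was at 11.4, 8.91 and 8.98 CPM in control and 12.4, 28.3 and 22.2 CPM in CNV, again with CNV 1 next to control 1. It was 2.15-fold higher (log2 1.11, SE 0.31), with an adjusted p of 0.151 in edgeR and 0.0464 in DESeq2. For both fragments the groups overlapped when only total counts were used for scaling.

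The largest positive differences belonged to rare AAC members. The fragment tRF-Val-AAC-027 was at 1.72, 1.51 and 1.43 CPM in control and at 3.70, 3.78 and 3.27 CPM in CNV, with tight groups that did not overlap under either scaling. These levels rested on 7 to 21 counts per library (log2 1.20, SE 0.28, adjusted p 0.127 in edgeR, none given by DESeq2). The fragment tRF-Val-AAC-011, with 6 to 40 counts, was at 1.72, 1.94 and 1.22 CPM in control and 1.94, 3.58 and 6.88 CPM in CNV (log2 1.29, SE 0.46). Its CNV pools were spread widely, and CNV 1 equalled control 2 to 3 digits. Every listed tsRNA reaches a deposited score of at least 20.03 in some library (see the processing below). Both tRF-Val-AAC-027 and tRF-Val-AAC-011 do so only in CNV pools. They are thus listed only through the group where they are high, and their differences are not independent of the listing. The fifth most abundant AAC fragment, tRF-Val-AAC-019, was at 15.9, 10.8 and 11.8 CPM in control and 17.1, 23.1 and 14.1 CPM in CNV, and its groups overlapped (log2 0.50, SE 0.26, adjusted p 0.374 in edgeR).

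Other AAC fragments were lower in CNV, and the clearest was a minor one. The level of tRF-Val-AAC-017 was 7.93, 7.90 and 7.35 CPM in control and 2.92, 3.18 and 4.64 CPM in CNV. Each CNV pool was lower than each control pool, under TMM and under total-count scaling, and the control pools were close together. The group values were 7.73 ± 0.330 and 3.58 ± 0.928 CPM (n = 3), a log2 fold change of -1.10 (SE 0.26), with an adjusted p of 0.127 in edgeR and 0.0298 in DESeq2. It rested on 15 to 110 counts per library. Without CNV pool 3 it passed edgeR's test, at an adjusted p of 0.0440 (log2 -1.42), and without each other pool in turn it did not.

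The second most abundant valine fragment, tRF-Val-AAC-021, was at 288, 291 and 304 CPM in control and 137, 224 and 309.7 CPM in CNV. The control pools agreed within 8.63 CPM (SD), while the CNV pools ranged from the lowest value of all in CNV 1 to the highest of all in CNV 3 (SD 86.2), so the groups overlapped. Its log2 fold change was -0.40 (SE 0.27, adjusted p 0.506 in edgeR), -0.78 without CNV pool 3 and -0.15 without CNV pool 1. The fragment tRF-Val-AAC-022 had the same order of CNV pools, at 3.70, 10.3 and 14.8 CPM against 13.5, 17.0 and 13.9 CPM in control (log2 -0.62, SE 0.41, and -1.15 without CNV pool 3 and -0.25 without CNV pool 1). The fragment tRF-Val-AAC-014 was at 38.6, 62.5 and 66.9 CPM in control and 36.6, 49.3 and 55.2 CPM in CNV, with overlapping groups (log2 -0.25, SE 0.25). For each of these 3 fragments CNV 1 was the lowest of the 6 pools.

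**Figure D4:**
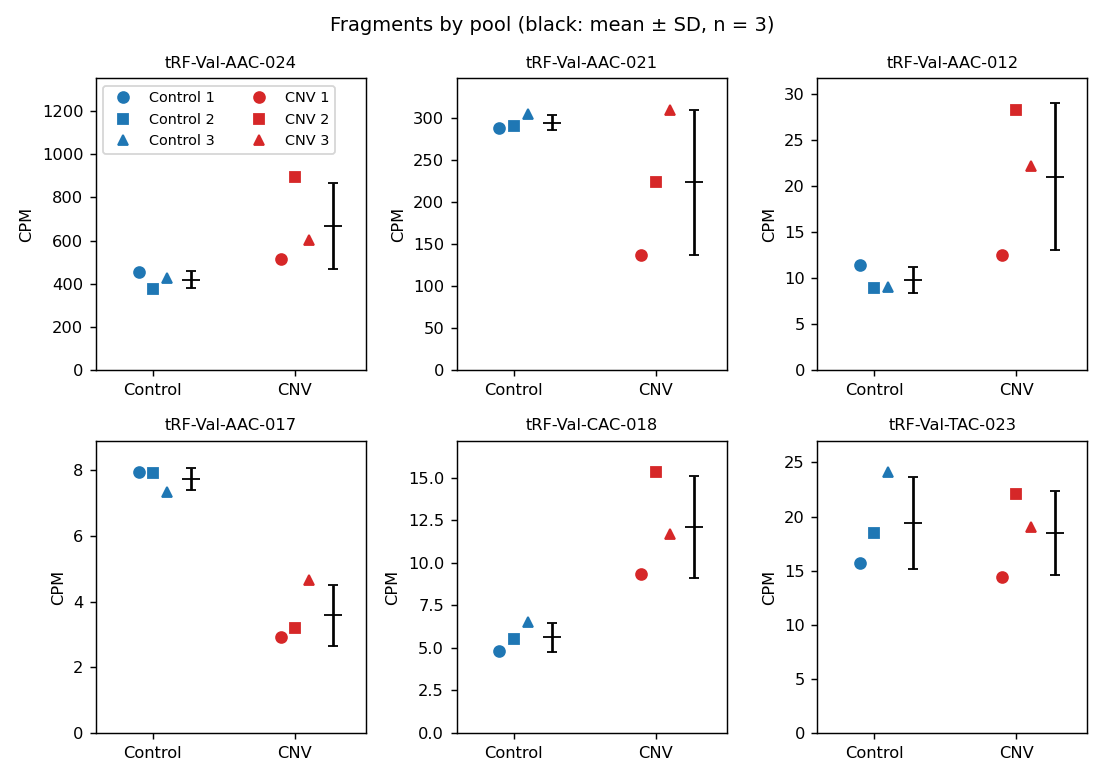
Levels in CPM of 6 tRF-Val fragments by pool, with the mean and SD of each group in black. In the CNV pools tRF-Val-AAC-024, tRF-Val-AAC-012 and tRF-Val-CAC-018 lie above control and tRF-Val-AAC-017 below, tRF-Val-AAC-021 is spread from 137 to 309.7 CPM, and tRF-Val-TAC-023 overlaps.

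The opposite differences of the leading AAC fragments were compared as a ratio within each library, which does not depend on the scaling. For every 100 counts of tRF-Val-AAC-024 there were 63.3, 76.9 and 71.4 counts of tRF-Val-AAC-021 in control pools 1 to 3 and 26.8, 25.03 and 51.5 in CNV pools 1 to 3. The ratio was lower in all CNV pools than in any control pool, with CNV 3 nearest to control. On the log2 scale it was -0.51 ± 0.14 in control and -1.62 ± 0.58 in CNV (SD, n = 3), a difference of -1.11. The two-sided exact permutation p was 0.1, the smallest that 3 against 3 can give, and the fragments were set against each other after their values were seen. Leaving out 1 pool gave differences from -1.44 to -0.92. Each had at least 706 counts in every library.

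Summed over all AAC members these differences partly cancelled. Summed AAC levels were 909, 837 and 911 CPM in control and 803, 1354 and 1146 CPM in CNV, with CNV 1 below every control pool and CNV 2 and CNV 3 above. The ratio of group means was 0.31 on the log2 scale, and it was -0.11 without tRF-Val-AAC-024. It was 0.50 without CNV pool 1 and 0.14 without CNV pool 2. The 15 AAC members other than the leading pair summed to 172 ± 7.59 CPM in control and 208 ± 47.6 CPM in CNV (n = 3). A sum over members was not tested.

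Among the CAC fragments a single one stood out. The level of tRF-Val-CAC-018 was 4.83, 5.53 and 6.53 CPM in control and 9.34, 15.3 and 11.7 CPM in CNV. All CNV pools were above all control pools under both scalings, with CNV 2 again the highest. It was 2.16-fold higher (5.63 ± 0.856 and 12.1 ± 3.01 CPM, n = 3, log2 1.11, SE 0.26), with an adjusted p of 0.127 in edgeR and 0.0238 in DESeq2, on 28 to 77 counts per library. The other 5 CAC fragments, with a mean of at most 15 counts per library, lay in the range of 0 to 3.78 CPM and their groups overlapped. Of these tRF-Val-CAC-014 had a log2 fold change of 0.65 (SE 0.39), tRF-Val-CAC-016 of -0.46 (SE 0.40) and tRF-Val-CAC-022 of -0.03 (SE 0.46), none of which passed edgeR's test, and tRF-Val-CAC-020 was at 1.81 ± 0.791 and 1.40 ± 0.519 CPM. The CAC members summed to 14.5 ± 1.14 CPM (control) and 20.5 ± 5.61 CPM (CNV) (log2 0.50), and without tRF-Val-CAC-018 it was 8.84 ± 1.75 and 8.41 ± 3.14 CPM (log2 -0.07).

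For most TAC fragments the group means were close. The leading one, tRF-Val-TAC-023, was at 15.7, 18.5 and 24.1 CPM in control and 14.4, 22.1 and 19.1 CPM in CNV (log2 -0.06, SE 0.25). The groups overlapped, with control 3 the highest pool and CNV 1 the lowest. The next, tRF-Val-TAC-004, was at 12.2, 16.0 and 18.6 CPM and at 11.7, 17.5 and 14.95 CPM (log2 -0.08, SE 0.25), and tRF-Val-TAC-001 at 10.5, 8.77 and 10.8 CPM and at 8.36, 9.55 and 11.0 CPM (log2 -0.05, SE 0.22). Their standard errors leave room for a difference of the size seen for tRF-Val-AAC-021. A pair of less abundant members had wide CNV groups: tRF-Val-TAC-016 at 3.11, 3.78 and 8.77 CPM (log2 -0.26, SE 0.40, and -0.94 without CNV pool 3 and -0.0043 without CNV pool 1) and tRF-Val-TAC-013 at 5.83, 8.16 and 3.78 CPM (log2 0.03, SE 0.30). The exception was tRF-Val-TAC-012, at 2.07, 2.16 and 2.04 CPM in control and 2.92, 2.79 and 2.92 CPM in CNV. Its groups did not overlap, but it had only 10 to 30 counts per library (log2 0.45, SE 0.27, unadjusted p 0.129 in edgeR). It is listed only through CNV 3, the 1 pool where it reaches the deposited score of 20.03. The TAC members summed to 69.8 ± 8.47 CPM in control pools and 66.7 ± 9.02 CPM in CNV pools (log2 -0.07).

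The anticodons were then compared through the ratios of their most abundant fragments within each library. The log2 ratio of tRF-Val-CAC-018 to tRF-Val-TAC-023 was -1.70, -1.74 and -1.88 in control and -0.62, -0.53 and -0.71 in CNV. The groups were separated by 1.15 log2 units (1.10 to 1.198 when a pool was left out), with an SD of 0.0960 in control and 0.0898 in CNV. These SDs were below the counting error of a single ratio (standard error 0.187 to 0.312 log2 units, from 28 to 77 counts of the first and 74 to 257 of the second fragment), so they understate the error. The log2 ratio of tRF-Val-AAC-024 to tRF-Val-TAC-023 was 4.86, 4.36 and 4.15 in control and 5.15, 5.34 and 4.98 in CNV, a difference of 0.70 with control 1 next to CNV 3. That of tRF-Val-AAC-024 to tRF-Val-CAC-018 was 6.56, 6.09 and 6.03 in control and 5.78, 5.87 and 5.68 in CNV, a difference of -0.45 (-0.28 without control pool 1). For each of the 3 pairs the groups did not overlap and the two-sided exact permutation p was 0.1 (0.1 adjusted over 3 pairs), the smallest possible with 3 pools a group. Any 1 of these ratios follows from the other 2, so they are not 3 separate results. When all members of an anticodon were summed, the differences were 0.53 for CAC over TAC, 0.35 for AAC over TAC and -0.18 for AAC over CAC. For the sums over TAC the groups no longer separated: control 1 and CNV 1 were both at -2 for CAC over TAC, and at 3.86 and 3.82 for AAC over TAC (exact permutation p 0.2 for both, and 0.1 for AAC over CAC).

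**Figure D5:**
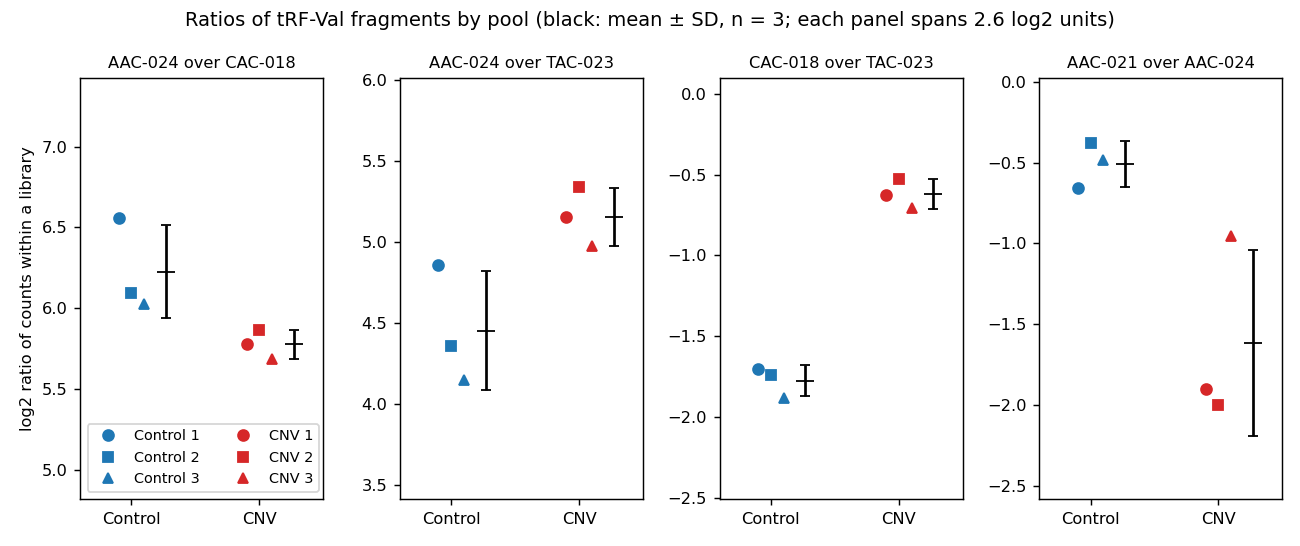
log2 ratio of the counts of 2 tRF-Val fragments within each pool, for the leading fragments of each pair of anticodons and for the leading AAC pair, with mean and SD in black. The groups are apart in all 4 panels, and the CAC-018 to TAC-023 ratio runs from -1.88 to -1.70 in control and from -0.71 to -0.53 in CNV.

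Counting members by whether the groups overlapped in TMM-scaled CPM gave 7 tested members wholly higher in CNV and 1 wholly lower, where 11.4% of all small RNAs tested were wholly higher and 8.93% wholly lower. The higher ones were tRF-Val-AAC-024, tRF-Val-AAC-023, tRF-Val-AAC-012, tRF-Val-AAC-011, tRF-Val-AAC-027, tRF-Val-CAC-018 and tRF-Val-TAC-012, and the lower one was tRF-Val-AAC-017. With total counts as the only scaling, 4 of the 29 remained apart (13.8%), against 20.2% of all small RNAs. These were tRF-Val-AAC-017, tRF-Val-AAC-027, tRF-Val-CAC-018 and tRF-Val-TAC-012. Of the members named here, tRF-Val-AAC-011, tRF-Val-AAC-027 and tRF-Val-TAC-012 reach the deposited score of 20.03 that every listed tsRNA reaches only in CNV pools. They are listed only through the group where they are high, so the tallies of members apart depend in part on the listing. Taking either direction, 27.6% of the tested tRF-Val members were apart under TMM, against 20.4% of all small RNAs and 15.3% of the 392 other tRFs. Under total counts these shares were 13.8%, 20.2% and 14.3%, so the valine share was close to that of the other tRFs.

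The remaining tested AAC fragments had groups that overlapped. The fragment tRF-Val-AAC-020 was at 9.25 ± 0.317 CPM in control and 8.27 ± 1.23 CPM in CNV (n = 3), and tRF-Val-AAC-015 at 3.19 ± 0.553 and 3.16 ± 0.627 CPM. Levels of tRF-Val-AAC-013, tRF-Val-AAC-031, tRF-Val-AAC-018 and tRF-Val-AAC-030 were higher on average in CNV, with log2 fold changes of 0.31, 0.46, 0.24 and 0.95 and standard errors of 0.30, 0.35, 0.47 and 0.56. The untested tRF-Val-AAC-016 was at 1.72, 2.30 and 1.43 CPM in control and 0.778, 1.19 and 1.38 CPM in CNV, groups that were apart under TMM but overlapped under total-count scaling, and it rested on 4 to 32 counts. The 3 remaining TAC fragments, tRF-Val-TAC-022, tRF-Val-TAC-002 and tRF-Val-TAC-018, had log2 fold changes of -0.08, -0.07 and -0.14.

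The CNV pools were not alike for the valine fragments. In 19 of the 29 tested members CNV 1 had the lowest level of the 3 CNV pools (65.5%), against 37.5% of the 392 other tRFs and 28.9% of all 997 small RNAs. The members share their libraries, so these shares are a description only. The tRF-Val counts were 0.916%, 1.36% and 2.06% of all tRF counts in CNV pools 1 to 3 and 1.80%, 2.26% and 2.02% in control pools 1 to 3. In the same pools all other tRFs together, mostly glycine fragments, stood at 94552, 105684 and 58917 CPM in CNV and 53817, 39723 and 48598 CPM in control. The valine share of tRF counts was therefore lower in CNV 1 and CNV 2 than in any control pool, while the tRF-Val level in CPM was highest in CNV 2 (1453 CPM) and CNV 3 (1237 CPM) and lowest in CNV 1 (874 CPM), with 918 to 1004 CPM in control.

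The valine tiRNAs had another order of pools. For tiRNA-Val-CAC-004, CNV 1 and CNV 2 were at 201 and 229 CPM while CNV 3, at 131 CPM, was within the control range (log2 0.56, SE 0.21, adjusted p 0.235 in edgeR). The fragment tiRNA-Val-AAC-003 was at 32.6, 24.2 and 30.6 CPM in control and 54.1, 56.5 and 28.0 CPM in CNV, so CNV 3 again lay among the controls (log2 0.67, SE 0.28, adjusted p 0.270 in edgeR). The fragment tiRNA-Val-TAC-003 was at 6.04, 5.96 and 6.74 CPM in control and 14.8, 13.1 and 6.88 CPM in CNV, with CNV 3 just above the controls (log2 0.89, SE 0.30, adjusted p 0.202 in edgeR). None of the 4 tested tiRNA-Val passed, and DESeq2 called none of them. At an unadjusted p under 0.05 in edgeR, 3 were higher (10.8% of all small RNAs and 13.6% of all tsRNAs were). The other tested one, tiRNA-Val-AAC-002, was at 2.12 ± 0.291 and 1.72 ± 0.601 CPM (n = 3), and tiRNA-Val-CAC-005 was not tested for low counts. CNV 1 was thus among the high pools for the leading tiRNAs and the lowest pool for tRF-Val-AAC-021, tRF-Val-AAC-022 and tRF-Val-AAC-014. In CNV pools 1 to 3 the leukocyte markers summed to 910.4, 847 and 612 CPM, and the erythrocyte markers to 4164, 3234 and 954 CPM. The skeletal muscle markers summed to 90552, 75199 and 57413 CPM, and the fibroblast and smooth muscle markers to 116916, 117030.4 and 97805 CPM. RPE markers were at 6543, 5164 and 4571 CPM, and surface epithelium markers at 6600, 3270 and 3780 CPM. Other lists were highest in CNV 3 among the CNV pools. These were the photoreceptor (34401, 24742 and 49487 CPM), neuron (10958, 7827 and 12490 CPM) and endothelial markers (35434, 36007 and 42864 CPM). The part of these cell types in the orders of pools was not tested.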

How the data were processed

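Small RNA libraries (inserts of 14 to 40 nt per the labels' protocols) were made from 6 pools of 4 eyes, 3 per group, with groups and replicate numbers from the sample titles. The authors' deposited tables give a read count per mature miRNA and tsRNA. The submitters' processing notes list Bowtie. Its version, settings and genome build, and how a read shared by several tRNAs was counted, are not given in the sources used. A second deposited column, a score headed CPM, divides miRNAs and tsRNAs by different totals and was not tested. Every listed tsRNA reaches at least 20.03 in it in some library, and the lowest such maximum among tRF-Val is 20.4, so rarer fragments are not listed. The members tRF-Val-AAC-011, tRF-Val-AAC-027 and tRF-Val-TAC-012 reach 20.03 only in CNV pools, and tRF-Val-AAC-016 only in control 2.

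Counts were analysed in R 4.3.3 with edgeR 4.0.16 (filterByExpr minimum count 10, minimum total 15, TMM, quasi-likelihood test of CNV against control with no covariate) over miRNAs and tsRNAs together, with Benjamini-Hochberg adjustment over all 997 tested and a threshold of 0.05. Alternatives were DESeq2 1.42.0, limma-voom (limma 3.58.1), other scalings and filters, identical rows kept once, a replicate block and leaving out each pool. Within-library ratios were tested by exact permutation, two-sided. The counting error of a level is 100 over the square root of the mean count, in percent, and that of a log2 ratio is the Poisson standard error from both counts. Both cover counting only.

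Depth was 5057142 to 12839386 counts per library, and 4495 to 12774 for tRF-Val. The members, marker lists and rules were chosen with earlier results of these data known. Fragments were named by a rule: the 5 most abundant of each anticodon, the 4 highest and 4 lowest log2 fold changes among those of at least 10 CPM, the 3 smallest p in each direction, those called by edgeR or DESeq2, and up to 6 in each direction of at least 10 CPM whose groups were apart. Other members are named to account for all 32, after their values were seen. The ratio of the leading AAC fragments was added after seeing the data.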

Additional observations from a re-analysis of the deposited data

How the results depend on the processing

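The count of tRF-Val calls was 0 in edgeR and stayed 0 with relative log expression (RLE) factors, total counts, tsRNAs fitted alone, a minimum mean of 20 CPM, limma-voom and identical rows kept once. It was 3 of 29 in DESeq2 (10.3%, against 3.81% of all small RNAs) and 3 of 32 without a filter on low counts. The members called were tRF-Val-AAC-012, tRF-Val-AAC-017 and tRF-Val-CAC-018 in both. When a pool was left out, the count was 0 to 1. Among all tRFs there were 0 calls, 14 of 421 in DESeq2, 34 of 460 without the filter and 0 to 6 when a pool was left out. Among all tsRNAs these were 0, 16 of 456, 38 of 498 and 0 to 7. The share of all small RNAs called without the filter was not counted. Without the most abundant member the log2 ratio of group means was -0.11 for the AAC sum, -0.072 for the CAC sum and -0.084 for the sum of all tRF-Val, against 0.31, 0.50 and 0.29.

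The fitted direction was the same under each alternative run for the named fragments except those near 0. The value of tRF-Val-TAC-013, 0.03, was -0.0069 with RLE, -0.13 with total counts, -0.069 for tsRNAs alone, -0.055 without the filter, -0.0068 in DESeq2 and -0.038 in limma-voom. Leaving out a pool turned the direction of tRF-Val-TAC-013 (-0.32 to 0.20), tRF-Val-CAC-022 (-0.66 to 0.21), tRF-Val-TAC-023 (-0.25 to 0.079), tRF-Val-TAC-004 (-0.27 to 0.048) and tRF-Val-TAC-001 (-0.24 to 0.036), and of the TAC sum (-0.15 to 0.04). The median log2 fold change of all small RNAs was 0.05 under TMM and -0.11 with total counts. The cause of the differences between tools was not tested.

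Whether replicate numbers pair the samples is not stated. Deviations from the group means correlated at 0.29, 0.03 and 0.18 for control and CNV pools with the same number. For pools with different numbers they correlated at -0.26 to 0.15. With 3 pools a group these correlations cannot decide whether the numbers mark pairs or batches. With the replicate number as a block, 1 of 29 tRF-Val was called (tRF-Val-CAC-018, adjusted p 0.0446 in edgeR), 12 of 421 tRFs and 13 of 456 tsRNAs. The share of all small RNAs called with the block was not counted. Counting error, 13.5% for tRF-Val-CAC-018 and up to 37.8% for the other CAC members, limits what can be said of these.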
